A study of Sus scrofa with 8 samples.

Results

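The collagen chain genes are the genes that encode the alpha chains of the collagens, and they were chosen by name: every gene whose whole symbol is COL, a number, A and a number. There were 37 such genes among the 25578 in the deposited table, and 36 of them had enough counts to be tested. They were followed through the differentiation of pig pluripotent stem cells into lung progenitor organoids, with 2 libraries of messenger RNA at each of 4 stages. The stages were pluripotent stem cells (PSC), definitive endoderm (DE, the germ layer that gives rise to the gut and its organs), anterior foregut endoderm (AFE, which lines the head end of the embryonic gut, where lung buds form) and lung progenitor organoids (LPO). The deposited column names label the PSC libraries EPSC and the LPO libraries Organoid. The pig line, the induction factors, the culture matrix and the days of sampling are not given in the sources used here. No genotype or treatment beyond the stage is named for any group.

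Collagens are triple helices built from 3 alpha chains, and the chains that assemble together are encoded by separate genes. Fibrillar collagens form the cross-striated fibres of connective tissue, type IV collagens form the sheet-like scaffold of basement membranes on which epithelia rest, and the other classes coat fibrils, link them to cells or form networks of their own. In the developing lung, mesenchymal cells around the epithelial buds are known as the main source of fibrillar collagen, while epithelium and mesenchyme both contribute to the basement membrane between them. The chains were grouped into 8 classes: fibrillar (11 genes), basement membrane type IV (6), the multiplexins XV and XVIII (2), the beaded filament type VI (2), the network type VIII (2), fibril-associated (8), transmembrane (4), and types XXVI and XXVIII outside these classes (2).

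The libraries held 36004372 to 67566269 counts. At an assumed 4 counts for each read pair, these correspond to about 9001093 to 16891567 read pairs. Of the values from 1 to 12 counts, 46.4% to 50.7% in a library were 4, 8 or 12, so that conversion is approximate. POU5F1, a pluripotency factor, stood at 4453 and 5156 CPM (counts scaled to a common library size) in PSC. It stood at 390 and 383 CPM in DE and at or near 0 in LPO. Of 4 pluripotency markers tested, 3 were called lower and 1 higher in LPO than in PSC. The higher was SOX2, at 6.10 and 4.43 CPM in PSC and 30.3 and 30.7 in LPO. SOX17, an endoderm factor, stood at 251 and 228 CPM in DE. All 5 endoderm markers were called higher in DE than in PSC, but CXCR4 stood at 30.9 and 22.1 CPM in DE and 35.6 and 34.0 in AFE. NKX2-1, the factor that marks the lung field, was at 0 in PSC and DE, at 20.2 and 19.5 CPM in AFE and at 33.7 and 34.2 CPM in LPO. Other lung progenitor markers went both ways: SFTPB stood at 13.4 and 12.6 CPM in AFE and 4.61 and 4.18 in LPO, and SOX9 at 16.9 and 15.8 in AFE and 154 and 164 in LPO. Of the 6 anterior foregut markers, TBX1 was highest in AFE, at 11.5 and 10.9 CPM against 2.99 and 3.66 in DE, and SOX2 stood at 0.121 and 0.0701 in DE and 5.35 and 6.60 in AFE, while FOXE1 was at or near 0 and PAX9 at 2.38 and 1.33 in AFE. OTX2 was lower in AFE, at 3.92 and 3.17 CPM against 129 and 85.8 in DE. ISL1 stood at 2.39 and 4.01 in DE and 2.09 and 3.38 in AFE. Whether the paired libraries were grown as independent cultures is not stated, so the p-values reflect the spread between libraries alone, and that spread may be technical. Bulk RNA does not separate the number of cells of a type from the amount of RNA per cell.

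The summed level of the collagen genes was lowest in PSC and highest in LPO. On the scale of FPKM, which corrects for transcript length so that genes can be added and compared, the collagen genes summed to 83.6 and 79.3 in PSC, 587 and 569 in DE, 582 and 606 in AFE, and 2112 and 2161 in LPO. The DE and AFE libraries overlapped, and the LPO libraries stood far above all others. The share of all FPKM was 0.0186% and 0.0174% in PSC, 0.133% and 0.130% in DE, 0.125% and 0.130% in AFE, and 0.611% and 0.621% in LPO. FPKM was lower in sum over all genes in LPO, so the share of all FPKM rose by more than the summed level between AFE and LPO. From 4 members at 5 FPKM or more in each PSC library, the number went to 11 and 9 in DE, 14 in each AFE library and 25 in each LPO library.

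The make-up of the collagen RNA turned over as well, and a different class led at each end of the protocol. Fibril-associated genes held 30.8% ± 2.53 (SD, n = 2) of the summed collagen FPKM in PSC and multiplexins 54.6% ± 2.65 in DE and 45.3% ± 0.394 in AFE. Fibrillar genes held 12.8% ± 0.0453 in PSC and 6.37% ± 2.57 in DE, and their share was 23.8% ± 0.599 in AFE and 75.8% ± 0.124 in LPO. Type IV genes held 18.9% ± 0.0210, 28.04% ± 0.398, 22.6% ± 0.322 and 4.84% ± 0.0891 in the same order. The single most abundant collagen gene was COL9A1 in PSC, COL18A1 in DE and AFE, and COL3A1 in LPO, where COL3A1 alone held 31.1% and 30.6% of the collagen FPKM and ranked 64 and 66 among all genes. These shares are descriptions, since with 2 libraries against 2 an exact permutation test cannot go below p = 0.333.

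**Figure D1:**
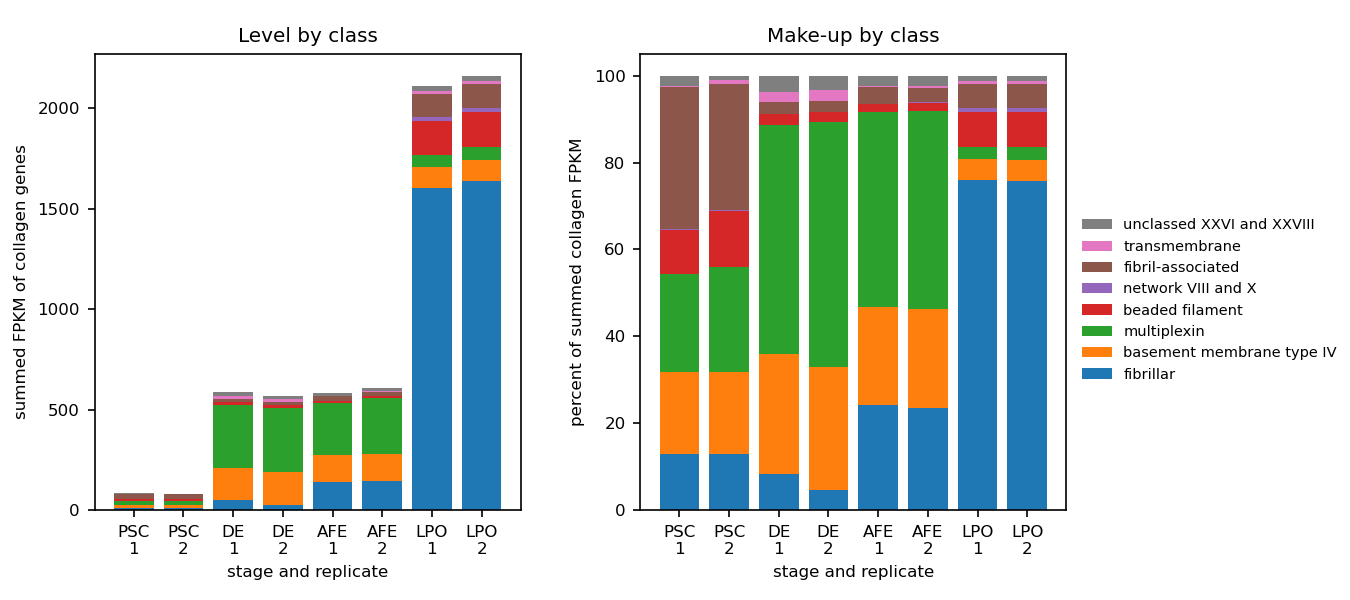
Stacked bars of the summed FPKM of the collagen genes (left) and of each class as a percent of that sum (right), 1 bar for each of the 8 libraries, coloured by class. The 2 LPO bars reach 2112 and 2161 FPKM and are mostly fibrillar, while multiplexin genes are the largest class of the DE and AFE bars, at 54.6% and 45.3% on average.

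In absolute FPKM the classes did not follow each other. From PSC through DE and AFE to LPO, fibrillar genes summed to 10.5 ± 0.346, 37.0 ± 15.6, 141.5 ± 0.495 and 1621 ± 23.6. Type IV genes summed to 15.4 ± 0.580, 162.1 ± 1.24, 134.5 ± 5.76 and 103.5 ± 3.58. Multiplexins summed to 19.1 ± 0.290, 315.6 ± 8.44, 269.0 ± 10.0 and 60.6 ± 1.40. The falling share of type IV and multiplexin genes in LPO was thus accompanied by a lower FPKM of their own and by the rise of the fibrillar sum. FPKM over all genes summed to 466145 and 467008 in AFE and 345563 and 347824 in LPO, and the class sums were not corrected for this.

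Most collagen genes differed between consecutive stages. In DE against PSC, 23 of the 36 tested genes rose and 5 fell (edgeR quasi-likelihood test, adjusted p under 0.05), where 53.8% of all 19346 genes tested were called, 30.8% higher and 23% lower. In AFE against DE, 12 rose and 9 fell, against a background of 35.3% called, 17.9% higher and 17.4% lower. The lower calls of that step were the less firm: they numbered 4 without AFE replicate 1, 5 without DE replicate 1, AFE replicate 2 or either LPO library, and 6 without DE replicate 2, while 11 or 12 higher calls were made in these fits. In LPO against AFE, 23 rose and 6 fell, against a background of 59.8%, with 30.2% higher and 29.6% lower. Over the whole protocol, LPO against PSC, 32 rose and 1 fell, against a background of 70.3%, with 41.5% higher and 28.8% lower. These shares of all genes tested are the background for every count by class or list below. The member counts include calls near the floor of 12 counts per library, for which no fold is given. They are those of COL24A1 in DE against PSC and in AFE against DE, and of COL28A1 in LPO against PSC.

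The members' median log2 changes were 2.61, -0.01, 2.83 and 4.12 in these 4 comparisons. They were 2.06, -0.01, 2.70 and 3.58 with genes at 0 in a stage set to their bound, where that bound was above 1. The calls of COL24A1 in DE against PSC and in AFE against DE, and of COL28A1 in LPO against PSC, kept their fitted change. Over all genes tested the medians were 0.08, 0, 0.09 and 0.49. An F test among the 4 stages called 34 of the 36 genes, against 79.2% of all genes tested, and left out COL13A1 and COL4A4. These comparisons share libraries and are not independent of each other. On the deposited FPKM scale the median gene was shifted up by 0.45 in LPO against AFE and by 0.34 in LPO against PSC (log2, pseudocount 1). With DESeq2 size factors it was shifted by -0.16 in DE against PSC and -0.11 in LPO against PSC, and by -0.11 in the latter when only those 4 libraries were fitted. The share of higher calls among all called genes in LPO against AFE was 62.9% on log2 FPKM with pseudocount 1 and 50.5% on scaled counts. On that FPKM scale the members split into 22 higher and 5 lower.

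**Figure D2:**
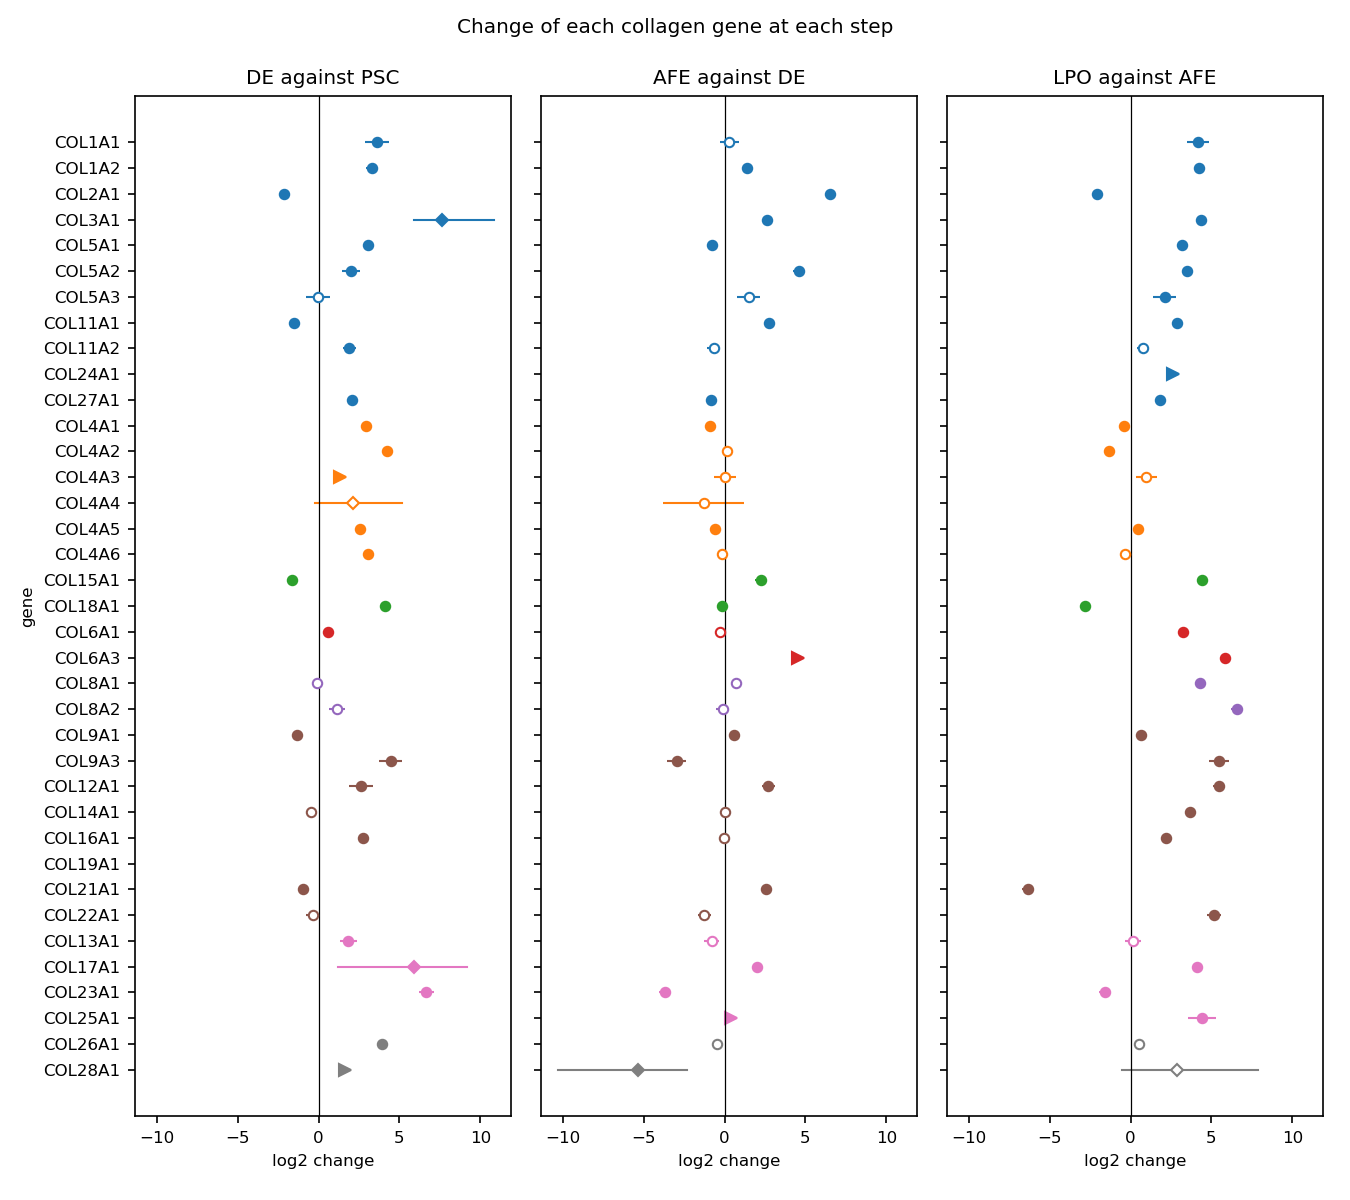
Log2 change of each collagen gene (vertical axis, coloured by class) at the 3 consecutive steps. Circles with standard errors are fitted changes, and arrowheads are bounds against a stage at 0. Diamonds with 95% counting intervals mark genes with 1 to 12 counts in a stage. Filled symbols passed the test and open circles and diamonds did not. Changes without a fold are not drawn, among them the calls of COL24A1 at the first and second steps. The first and the last step lie mostly to the right of 0, and the middle step lies on both sides. The medians of the first and the last step were 2.61 and 2.83 on fitted changes and 2.06 and 2.70 with bounds.

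The fibrillar genes for types I, III and V carried most of the LPO level. COL3A1, which encodes the chain of type III collagen found in distensible tissues (ENSSSCG00000016034, chromosome 15, 93526603 to 93596363), stood at 0 and 0.238 CPM in PSC, 28.5 and 19.3 in DE, 144 and 146 in AFE, and 2922 and 2946 in LPO. Every stage lay above the one before it with no overlap. Its log2 change was 2.60 ± 0.235 (SE) in AFE against DE (adjusted p = 0.000129) and 4.34 ± 0.2501 in LPO against AFE (adjusted p = 3.01e-06). PSC held only 2 read pairs of it, so the rise in DE against PSC is given as a counting ratio of 201, with a 95% interval of 61.1 to 1833 (adjusted p = 5.45e-06).

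COL1A1 and COL1A2 encode the chains of type I collagen, the main fibre of bone, skin and tendon. COL1A1 (chromosome 12, 26380305 to 26397004) stood at 6.50 and 5.23 CPM in PSC, 123 and 21.7 in DE, 89.8 and 88.3 in AFE, and 1556 and 1609 in LPO. The DE libraries differed from each other by 5.68-fold, more than 99.8% of the genes at 1 CPM or more in that stage, and the AFE values lay between them. COL1A2 (chromosome 9, 74174625 to 74210397) stood at 2.60 and 3.77 CPM in PSC, 41.4 and 20.8 in DE, 79.6 and 83.2 in AFE, and 1467 and 1541 in LPO. Its DE libraries differed by 1.99-fold, and no stages overlapped.

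Both type I genes rose in DE against PSC, by 3.62 ± 0.719 for COL1A1 (adjusted p = 0.00344) and 3.30 ± 0.336 for COL1A2 (adjusted p = 8.91e-05) on the log2 scale. Both rose again in LPO against AFE, by 4.15 ± 0.686 and 4.21 ± 0.306 (adjusted p = 0.00105 and 9.80e-06). In AFE against DE, COL1A2 rose by 1.39 ± 0.278 (adjusted p = 0.00642), while the change of COL1A1, 0.30, did not pass the test (adjusted p = 0.76). The COL1A1 call in that step rests on the DE libraries: the change was 2.04 without DE replicate 1 and -0.48 without DE replicate 2, and each passed the test. In DE against PSC the COL1A1 change was 1.88 without DE replicate 1 and 4.37 without DE replicate 2, and passed in both.

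The same DE library was also the higher for COL12A1 (3.69-fold), COL5A2 (3.11-fold) and COL13A1 (2.19-fold). The summed CPM of the endothelial markers was 114 and 73.0 in the 2 DE libraries, in the same order. Most of that sum, and of its difference, was the receptor gene KDR, at 79.9 and 43.3. TIE1 stood at 21.6 and 19.3 CPM, PECAM1 at 5.90 and 5.54 and CDH5 at 3.04 and 2.14. The summed fibroblast and mesenchyme markers stood at 928 and 977. That sum was mostly FBLN1, at 835 and 901, whereas PDGFRA stood at 72.8 and 59.5 CPM and PDGFRB at 15.5 and 12.3, higher in the same library as COL1A1. Their part in the difference was not tested.

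COL5A1 and COL5A2 encode chains of type V collagen, which sits inside type I fibrils and sets their diameter. COL5A1 (chromosome 1, 273971971 to 274085111) stood at 16.7 and 8.85 CPM in PSC, 117 and 98.4 in DE, 64.2 and 63.6 in AFE, and 571 and 604 in LPO. COL5A2 (chromosome 15, 93611856 to 93800191), which lies tail to tail with COL3A1 at a distance of 15.5 kb, stood at 0.471 and 0.594 CPM in PSC, 3.22 and 1.03 in DE, 53.7 and 51.6 in AFE, and 593 and 592 in LPO. The 2 chains therefore differed in timing. In AFE against DE, COL5A2 rose by 4.63 ± 0.374 on the log2 scale (adjusted p = 7.26e-05) and COL5A1 fell by 0.75 (SE 0.229, adjusted p = 0.0371), the latter a call that is lost when any of the DE, AFE or LPO libraries is left out.

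In DE against PSC, COL5A1 rose by 3.06 ± 0.253 (adjusted p = 2.86e-05) and COL5A2 by 2.01 ± 0.562 (adjusted p = 0.0176). The COL5A2 call was lost without either PSC library and when only the 4 DE and PSC libraries were fitted, and the change was 0.97 without DE replicate 1 and 2.59 without DE replicate 2. In LPO against AFE both rose, by 3.20 ± 0.246 and 3.49 ± 0.326 (adjusted p = 1.33e-05 and 3.95e-05). The ratio of COL5A2 to COL5A1 in FPKM was 0.0311 and 0.0808 in PSC, 0.0339 and 0.0128 in DE, 1.03 and 1.00 in AFE, and 1.28 and 1.21 in LPO.

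The type I and III genes also kept closer ratios in the later stages. COL1A2 to COL1A1 in FPKM was 0.469 and 0.844 in PSC, 0.393 and 1.12 in DE, 1.04 and 1.10 in AFE, and 1.10 and 1.12 in LPO, so the 2 libraries of a stage were close only in AFE and LPO. COL3A1 to COL1A1 was 1.82 and 1.88 in AFE and 2.13 and 2.08 in LPO.

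COL2A1 and COL11A1, the chains best known from cartilage fibrils, followed other courses. COL2A1 (chromosome 5, 78350137 to 78380718) stood at 17.5 and 24.0 CPM in PSC, 4.76 and 4.56 in DE, 416 and 420 in AFE, and 97.7 and 99.5 in LPO. It fell, rose by 89.8-fold and fell again, with log2 changes of -2.15 ± 0.143, 6.49 ± 0.163 and -2.08 ± 0.130 (adjusted p = 9.45e-06, 5.01e-07 and 4.34e-06), and no stages overlapped. COL11A1 stood at 21.95 and 20.3 CPM in PSC, 8.73 and 5.89 in DE, 49.2 and 50.1 in AFE, and 365 and 372 in LPO. It fell by 1.53 (SE 0.162) in DE and then rose by 2.76 ± 0.164 and 2.89 ± 0.159 (adjusted p = 0.000111, 1.69e-05 and 2.38e-06).

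In AFE, COL2A1 was the leading fibrillar gene per length, at 70.1 and 70.4 FPKM against 23.0 and 23.2 for COL3A1. Of the 9 other markers listed for cartilage, CNMD, a cartilage glycoprotein gene, followed a like course, at 0.346 and 0 CPM in DE, 15.7 and 14.0 in AFE, and 0.549 and 0.453 in LPO. HAPLN1, a link protein gene, stood at 20.2 and 22.9 CPM in AFE and SOX9 at 16.9 and 15.8, while the proteoglycan core gene ACAN and the matrix gene COMP were at 0 in both AFE libraries. The 9 markers summed to 55 to 57 CPM in AFE and to 206 to 216 in LPO, where SOX9, which lung tip progenitors also express, held most of the sum at 154 and 164. Their part in the COL2A1 result was not tested.

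COL27A1 stood at 6.30 and 3.42 CPM in PSC, 19.3 and 21.3 in DE, 11.1 and 11.3 in AFE, and 38.03 and 39.6 in LPO, and rose in LPO against AFE by 1.80 ± 0.237 (log2, adjusted p = 0.000289). It rose in DE against PSC by 2.05 ± 0.249 (adjusted p = 0.000234) and fell in AFE against DE by 0.86 (adjusted p = 0.0235), a call lost without any 1 of the 4 DE and AFE libraries. COL5A3, COL11A2 and COL24A1 stayed below 1.3 FPKM in every library. The rise of COL5A3 in LPO against AFE (2.11, adjusted p = 0.0301) was lost without any 1 of the 4 AFE and LPO libraries. COL24A1 was at 0 in PSC and AFE and at or near the floor of 3 read pairs in DE, so no fold is given for its calls in the first and second steps, both of which were lost with the replicate block, with counts divided by 4 and without DE replicate 1 or either LPO library. It was at least 6.23-fold higher in LPO than in AFE. Of the 11 fibrillar genes, 8 rose and 2 fell in DE, 5 rose and 3 fell in AFE, 9 rose and 1 fell in LPO against AFE, and 11 rose in LPO against PSC.

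The summed fibroblast and mesenchyme markers were higher at each later stage, as the fibrillar sum was, but single markers went both ways. Of 12 listed markers 11 were in the table, and their summed CPM was 127 to 156 in PSC, 928 to 977 in DE, 1428 to 1454 in AFE and 3481 to 3487 in LPO. In LPO the matrix gene POSTN stood at 2482 and 2459 CPM, the receptor PDGFRB at 341 and 359 and the factor PRRX1 at 62.9 and 61.9, whereas in DE and AFE most of the sum was FBLN1, a basement membrane and elastic fibre gene. DCN and LUM, small proteoglycans of fibroblasts, stood at 19.0 and 21.4 and at 6.28 and 6.89 CPM in LPO, and MEOX2 at or near 0 in every library. FBLN1 stood at 1375 and 1399 CPM in AFE and 458 and 460 in LPO, PDGFRA at 8.50 and 7.12 in AFE, below its DE level, and TWIST2 was highest in PSC, at 1.91 and 1.19. Of the 11, 7 rose and 1 fell in LPO against AFE, with a median log2 change of 3.48 against 0.09 for all genes. The part of mesenchymal cells in the fibrillar result was not tested.

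**Figure D3:**
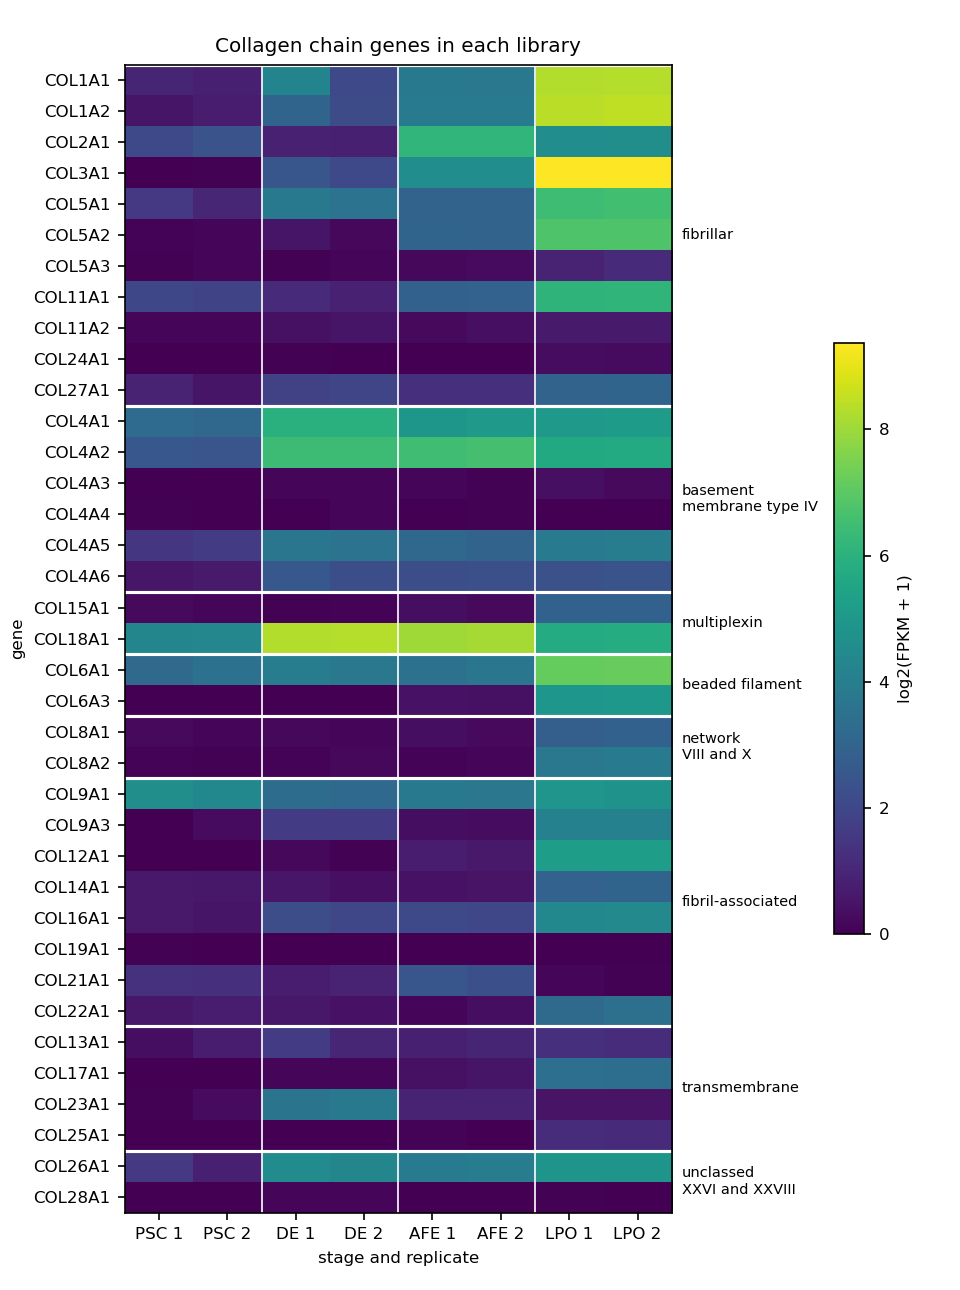
Log2(FPKM + 1) of the 37 collagen genes (rows, grouped by class with white lines) in the 8 libraries (columns). The LPO columns are bright for COL1A1, COL1A2 and COL3A1, at 309 to 661 FPKM, the DE and AFE columns for COL18A1, COL4A1 and COL4A2, and the first DE library is brighter than the second for COL1A1, at 17.9 against 3.15 FPKM.

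The type IV genes reached their level in DE, before the fibrillar genes. COL4A1 and COL4A2 encode the chains of the common basement membrane heterotrimer and lie head to head on chromosome 11, COL4A1 at 76858356 to 76942074 and COL4A2 at 76997516 to 77161614, 55.4 kb apart. COL4A1 stood at 62.2 and 57.0 CPM in PSC, 457 and 453 in DE, 233 and 247 in AFE, and 179 and 190 in LPO. COL4A2 stood at 33.7 and 32.4 CPM in PSC, 611 and 615 in DE, 655 and 714 in AFE, and 263 and 277 in LPO. For both genes no libraries of different stages overlapped.

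In DE against PSC, COL4A1 rose by 2.93 ± 0.0760 on the log2 scale and COL4A2 by 4.21 ± 0.0739 (adjusted p = 1.67e-07 and 3.56e-08). In AFE against DE, COL4A1 fell by 0.93 (SE 0.0708, adjusted p = 5.47e-05), while COL4A2 had a change of 0.16 that did not pass the test (adjusted p = 0.0928). In LPO against AFE both fell, by 0.38 for COL4A1 (SE 0.0703, adjusted p = 0.00211) and by 1.34 for COL4A2 (SE 0.0652, adjusted p = 1.34e-06). The COL4A1 direction in that step depends on the scale: on log2 FPKM with pseudocount 1 its change was 0.11, where the median gene moved up by 0.45.

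The 2 genes are read from opposite strands, and their ratio was not constant. COL4A2 to COL4A1 in FPKM was 0.566 and 0.595 in PSC, 1.40 and 1.42 in DE, 2.94 and 3.03 in AFE, and 1.54 and 1.52 in LPO. The spread within a stage was small beside the differences between stages, and the ratio of counts gave the same order.

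**Figure D4:**
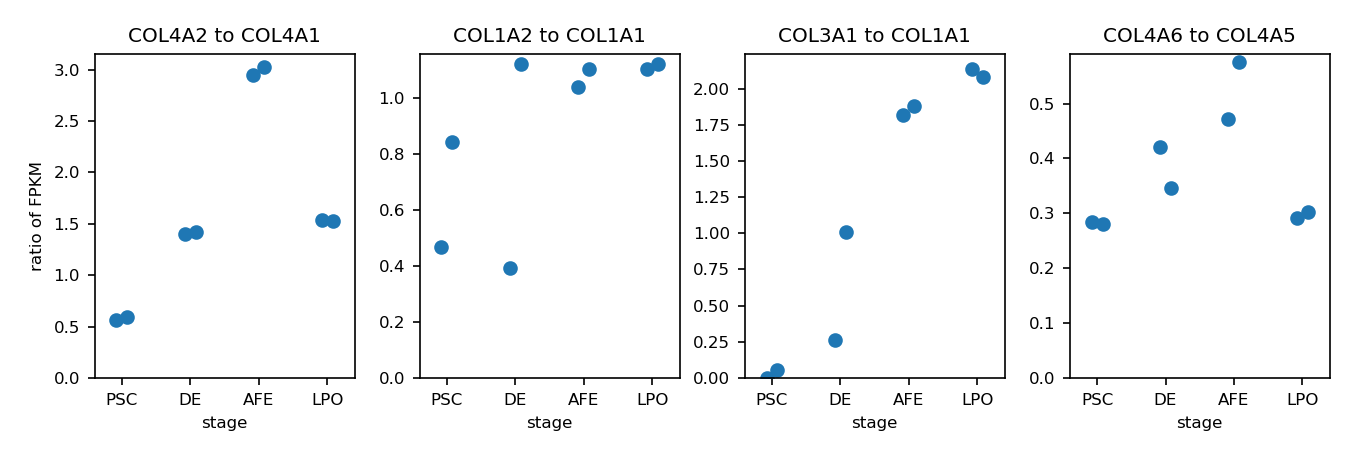
Ratio of FPKM between chains that assemble together or share a fibril, 1 point for each library at each stage. COL4A2 to COL4A1 rises from 0.566 and 0.595 in PSC to 2.94 and 3.03 in AFE and stands at 1.54 and 1.52 in LPO, while COL1A2 to COL1A1 differs between the libraries of PSC and of DE and lies between 1.04 and 1.12 in AFE and LPO.

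COL4A5 and COL4A6, the X-linked pair of basement membrane chains, lie head to head 1.45 kb apart. COL4A5 stood at 12.7 and 15.7 CPM in PSC, 88.1 and 82.5 in DE, 62.2 and 53.2 in AFE, and 76.6 and 80.3 in LPO. It rose in DE by 2.59 ± 0.131 (adjusted p = 2.66e-06), and its later changes, -0.56 in AFE against DE and 0.44 in LPO against AFE, are calls that are lost without AFE replicate 2 and, for LPO against AFE, also without either LPO library. COL4A6 stood between 3.77 and 4.60 CPM in PSC and between 23.3 and 38.7 CPM in the later libraries. It rose in DE by 3.04 (adjusted p = 4.54e-06) and had no called change at the later steps, where its change of -0.36 in LPO against AFE (adjusted p = 0.0760) was 0.10 on log2 FPKM with pseudocount 1.

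COL4A3 and COL4A4, the chains of kidney and alveolar basement membranes, were barely detected. COL4A3 was at 0 in PSC and between 0.517 and 2.07 CPM in the later libraries, at least 2.48-fold higher in DE than in PSC (adjusted p = 0.00171). COL4A4 was above 0 in 3 of the 8 libraries, at most 0.859 CPM, and passed in no comparison. Of the 6 type IV genes, 5 rose in DE against PSC, 2 fell in AFE against DE, 1 rose and 2 fell in LPO against AFE, and 5 rose in LPO against PSC.

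The multiplexins, collagens with interrupted helices whose ends can be released as endostatin-like fragments, moved in opposite directions at every step. COL18A1 (chromosome 13, 207940948 to 207982938), a basement membrane chain, stood at 144 and 152 CPM in PSC, 2481 and 2580 in DE, 2165 and 2294 in AFE, and 312 and 324 in LPO. It rose in DE by 4.10 ± 0.0627 (adjusted p = 2.92e-08) and fell in LPO against AFE by 2.81 (SE 0.0590, adjusted p = 1.48e-07), yet LPO stayed above PSC by 1.11 ± 0.0562 (adjusted p = 9.14e-07). Its fall by 0.18 in AFE against DE (adjusted p = 0.0358) was lost without DE replicate 2 and also without each single AFE or LPO library.

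COL15A1, found between basement membrane and interstitial matrix, stood at 1.19 and 0.891 CPM in PSC, 0.259 and 0.420 in DE, 1.89 and 1.30 in AFE, and 33.4 and 34.1 in LPO. It fell in DE by 1.62 (SE 0.334, adjusted p = 0.00423), a call lost when only the 4 DE and PSC libraries were fitted and on log2 FPKM with pseudocount 1. It rose by 2.23 ± 0.313 in AFE and by 4.40 ± 0.277 in LPO (adjusted p = 0.00118 and 4.62e-06). In LPO COL18A1 still led per length, at 53.1 and 55.0 FPKM against 6.48 and 6.59 for COL15A1.

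Type VI collagen forms beaded filaments near cells and type VIII forms hexagonal networks in vessel walls and under some epithelia, and these genes rose mainly at the last step. COL6A1 (chromosome 13, 208295451 to 208313127) stood at 39.8 and 48.7 CPM in PSC, 71.2 and 61.0 in DE, 51.0 and 58.8 in AFE, and 506 and 524 in LPO. COL6A3 was at 0 in all 4 PSC and DE libraries, at 5.04 and 4.60 CPM in AFE, and at 269 and 282 in LPO. COL6A1 thus had a level before LPO that COL6A3 lacked.

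COL6A1 rose by 0.58 ± 0.124 in DE (adjusted p = 0.00493) and by 3.23 ± 0.132 in LPO against AFE (adjusted p = 6.50e-07). COL6A3 was at least 23.1-fold higher in AFE than in DE (adjusted p = 1.01e-05) and rose by 5.83 ± 0.112 in LPO against AFE (adjusted p = 5.10e-07). Its ratio to COL6A1 in FPKM was 0.0383 and 0.0299 in AFE and 0.207 and 0.209 in LPO.

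COL8A1 stood between 0.713 and 1.70 CPM in the 6 libraries before LPO and at 27.5 and 29.7 in LPO. COL8A2 stood between 0.119 and 0.543 CPM before LPO and at 35.7 and 37.99 in LPO. Neither passed in the first or second step, and in LPO against AFE they rose by 4.29 ± 0.278 and 6.56 ± 0.377 (adjusted p = 5.28e-06 and 2.98e-06). COL8A2 had a 94.4-fold change there, among levels that were near the floor in AFE.

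The fibril-associated collagens, which decorate fibrils without forming them, split into genes of the last stage and genes of earlier ones. COL12A1, a chain of dense connective tissue, stood at 0.124 and 0.297 CPM in PSC, 2.01 and 0.543 in DE, 8.83 and 7.84 in AFE, and 358 and 372 in LPO. It rose by 2.70 ± 0.407 in AFE and 5.45 ± 0.383 in LPO against AFE (adjusted p = 0.00165 and 8.04e-06). Its rise in DE, 2.64 ± 0.756 (adjusted p = 0.0194), was lost without PSC replicate 1, when only the 4 DE and PSC libraries were fitted and on log2 FPKM, and was 1.41 without DE replicate 1 and 3.27 without DE replicate 2.

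COL16A1, a minor chain of fibrils near epithelia, stood at 3.72 and 3.00 CPM in PSC, 25.2 and 21.2 in DE, 22.9 and 21.8 in AFE, and 101 and 106 in LPO. It rose by 2.78 ± 0.143 in DE and by 2.21 ± 0.128 in LPO against AFE (adjusted p = 2.85e-06 and 3.08e-06). COL14A1, a chain of mature fibril surfaces, stood between 2.63 and 4.74 CPM before LPO and at 42.5 and 44.5 in LPO, a rise by 3.65 ± 0.216 (adjusted p = 3.37e-06). COL22A1, known from tissue junctions, stood between 0.685 and 4.55 CPM before LPO and at 43.4 and 52.1 in LPO, a rise by 5.16 ± 0.453 (adjusted p = 2.78e-05).

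COL9A1 and COL9A3 encode chains of type IX collagen, which coats type II fibrils. COL9A1 stood at 100.01 and 84.5 CPM in PSC, 38.4 and 36.0 in DE, 57.7 and 54.3 in AFE, and 91.7 and 86.7 in LPO. Its PSC and LPO libraries overlapped, with a log2 difference of -0.05 that did not pass the test (adjusted p = 0.682), and on log2 FPKM with pseudocount 1 a difference of 0.35 passed. Between them it fell by 1.31 (SE 0.103) and rose by 0.59 ± 0.102 and 0.67 ± 0.101 (adjusted p = 2.18e-05, 0.00305 and 0.00062). COL9A3 stood at 0 and 0.624 CPM in PSC, 6.33 and 6.52 in DE, 0.832 and 0.817 in AFE, and 36.6 and 37.1 in LPO.

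COL9A3 rose, fell and rose, by 4.46 ± 0.708, -2.96 ± 0.578 and 5.48 ± 0.616 on the log2 scale (adjusted p = 0.00105, 0.00572 and 0.000116), and the fall was lost with the DESeq2 Wald test. The 2 type IX genes therefore went in opposite directions in DE and in AFE. COL9A1 lies tail to tail with COL19A1, 3.39 kb away, and COL19A1 was the 1 member with too few counts to be tested, at 0.397 CPM in PSC replicate 1, 0.0504 CPM in LPO replicate 2 and 0 in the other libraries.

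COL21A1, a chain of vessel walls, was the only member that was lower in LPO than in PSC by the test. It stood at 12.4 and 11.8 CPM in PSC, 5.34 and 7.24 in DE, 40.4 and 33.7 in AFE, and 0.661 and 0.252 in LPO. It rose in AFE by 2.56 ± 0.315 and fell in LPO against AFE by 6.33 (SE 0.393), an 80.7-fold change (adjusted p = 0.000606 and 4.28e-06). Against PSC, LPO was lower by 26.3-fold (adjusted p = 1.17e-05). Its fall by 0.94 in DE (adjusted p = 0.0326) was lost without either PSC library, without DE replicate 1 or without either AFE library. Of the 7 fibril-associated genes tested, 3 rose and 2 fell in DE, 3 rose and 1 fell in AFE, and 6 rose and 1 fell in LPO against AFE.

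The transmembrane collagens are single-pass surface proteins, and they peaked in DE or in LPO. COL23A1 stood at 0.298 and 1.43 CPM in PSC, 77.6 and 88.8 in DE, 6.43 and 6.34 in AFE, and 2.18 and 2.17 in LPO. It rose by 6.65 ± 0.465 in DE and fell by 3.70 (SE 0.373) and 1.55 (SE 0.369) at the next steps (adjusted p = 1.22e-05, 0.000225 and 0.0073). Its LPO level was above PSC by 1.39 ± 0.466 (adjusted p = 0.0286), a call lost without either DE or either LPO library and when only the 4 LPO and PSC libraries were fitted. Among the 8 members highest in DE, COL23A1 had the widest relative gap to the next stage, with 83.2 CPM on average in DE and 6.38 in AFE.

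COL17A1, a hemidesmosome chain that anchors basal epithelial cells to the basement membrane, stood at 0.0248 and 0 CPM in PSC, 0.726 and 0.771 in DE, 2.68 and 3.48 in AFE, and 53.6 and 51.6 in LPO. It rose by 2.04 ± 0.215 in AFE and 4.09 ± 0.200 in LPO against AFE (adjusted p = 0.000289 and 1.37e-06). PSC held 1 count of it, so its rise in DE is given as a ratio of CPM means, 60.4, that rests on this count. The 95% counting interval of 2.29 to 585 took that count as 1 read pair, so it belongs to a lower ratio. The DE call was lost on log2 FPKM with pseudocount 1. COL25A1 was at 0 in PSC and DE and at 0.473 and 0.0834 CPM in AFE, from 29 and 5 counts. It was at least 1.33-fold higher in AFE than in DE (adjusted p = 0.0244). That call was lost in some fits, such as on log2 FPKM and with counts divided by 4. Between AFE and LPO COL25A1 rose by 4.44 ± 0.858, to 6.33 and 5.83 CPM (adjusted p = 0.00576). Under the alternatives this rise ranged from 1.09 to 6.15. COL13A1 rose in DE by 1.84 ± 0.515 (adjusted p = 0.0175), with DE libraries at 7.07 and 3.22 CPM, a call lost without DE replicate 1 or PSC replicate 1, and passed in no other comparison by that test, although its change of 1.18 in LPO against PSC passed under 6 alternatives.

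COL26A1 and COL28A1, which belong to none of these classes, both rose in DE. COL26A1 stood at 2.63 and 1.13 CPM in PSC, 30.8 and 26.7 in DE, 19.7 and 21.4 in AFE, and 29.2 and 29.4 in LPO, a rise by 3.91 ± 0.312 in DE (adjusted p = 2.42e-05) with no called change afterwards by that test. Its changes of -0.49 in AFE against DE and 0.51 in LPO against AFE did pass in some other fits, such as those without either PSC library or with only the 4 libraries compared, and the latter was 0.96 and passed on log2 FPKM with pseudocount 1. Its values are uncertain, since another entry without a symbol, described as the same chain, lies directly behind it. COL28A1 was at 0 in PSC, at 1.04 and 0.964 CPM in DE and at or below 0.187 CPM in AFE and LPO, at least 3.06-fold higher in DE than in PSC (adjusted p = 0.00982). Its lower level in AFE is a ratio of CPM means of 40.0, resting on 3 counts in AFE replicate 2 and 0 in AFE replicate 1. The 95% counting interval of 5.07 to 1250 took these as 1 read pair, so it does not match that ratio exactly. The call of COL28A1 in AFE against DE was lost with the replicate block and without any of the DE and LPO libraries or AFE replicate 1. In LPO against PSC, at 15 and 14 counts against 0, COL28A1 was called higher (adjusted p = 0.0297). No fold is given for that call, which was also lost with the replicate block.

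By stage of highest mean CPM, 24 of the 37 genes peaked in LPO, 8 in DE, 3 in AFE and 2 in PSC. Of these, 22, 5, 3 and 0 lay above every library of the other stages. That second count was not made over all genes tested, so it cannot be read as particular to collagen genes. Over all genes tested, 38.4% peaked in LPO, 16.8% in DE, 18.4% in AFE and 26.5% in PSC. The 3 with their peak in AFE were COL2A1, COL4A2 and COL21A1, and COL9A1 and COL19A1 were highest in PSC without standing apart from the other stages.

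**Figure D5:**
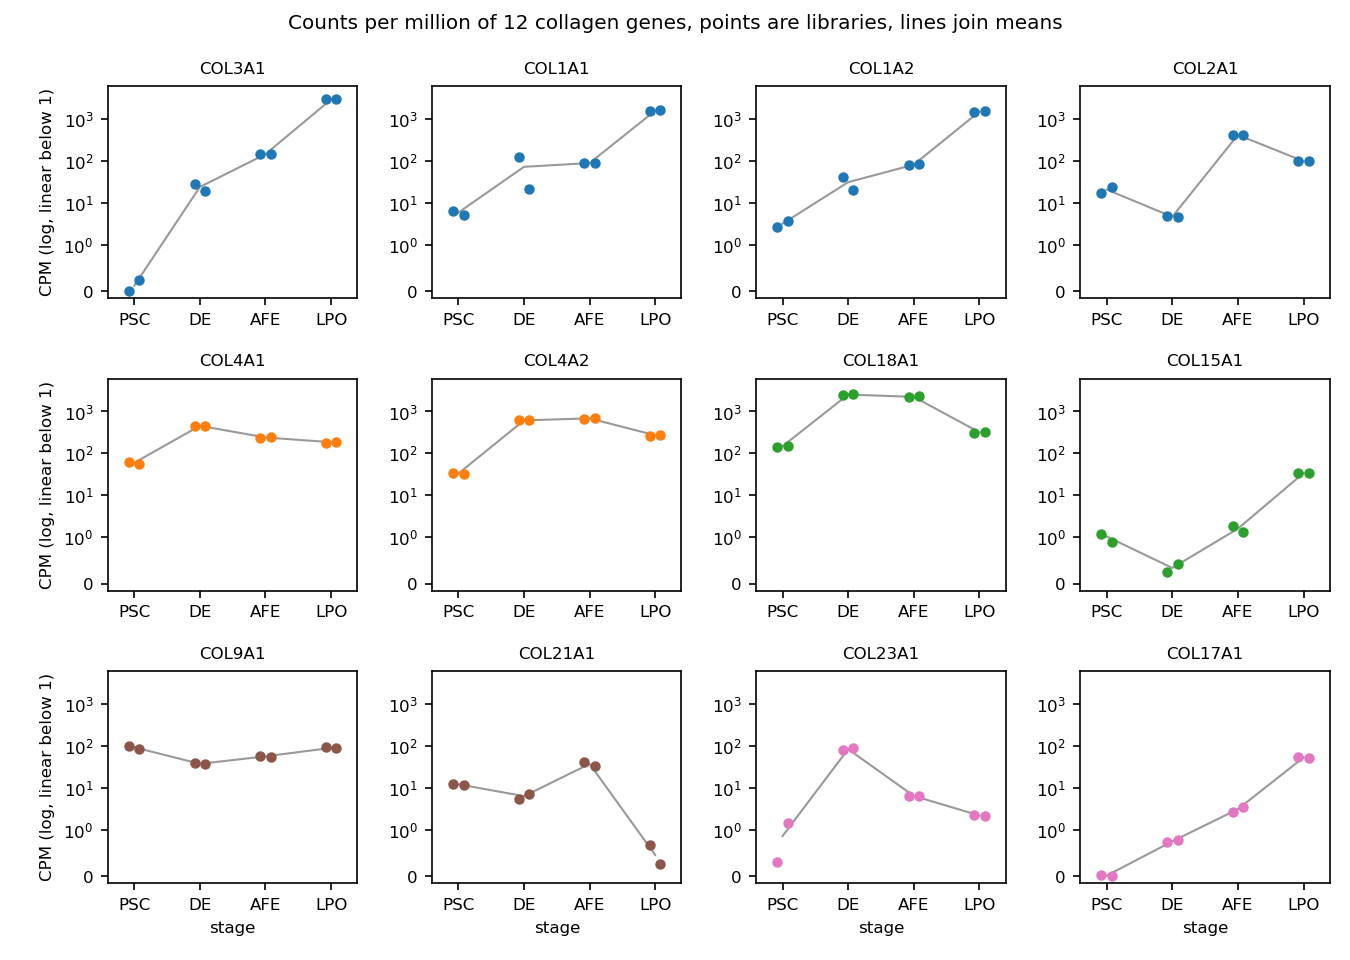
CPM of 12 collagen genes at each stage on a log axis that is linear below 1, with a point for each library and a line through the means. COL3A1 climbs from 0 and 0.238 to 2922 and 2946 CPM, COL18A1 stands at 2165 to 2580 CPM in DE and AFE, COL2A1 and COL21A1 peak in AFE, and COL23A1 peaks in DE.

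The enzymes that modify collagen chains rose mainly at the first step. Prolyl and lysyl hydroxylases and the glycosyltransferases stabilise the helix and prepare it for crosslinks. Of 14 such genes, 13 rose and none fell in DE against PSC, 3 rose and 6 fell in AFE against DE, and 7 rose and 3 fell in LPO against AFE, with median log2 changes of 2.17, -0.08 and 0.49. Of all genes tested, 30.8%, 17.9% and 30.2% rose in these comparisons, and 23%, 17.4% and 29.6% fell. P4HA1, the prolyl hydroxylase catalytic subunit, stood at 9.62 and 11.0 CPM in PSC, 154 and 115 in DE, 60.9 and 57.7 in AFE, and 722 and 733 in LPO, with a change of 3.62 in LPO against AFE (adjusted p = 6.08e-07). PLOD2, a lysyl hydroxylase, rose by 3.00 in DE, fell by 1.52 in AFE and rose by 1.67 in LPO.

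Folding and export genes split. Of 10 listed genes 6 were in the table, and 3 rose and 1 fell in DE, 2 rose and 3 fell in AFE, and 2 rose and 1 fell in LPO against AFE. Of all genes tested, 53.8%, 35.3% and 59.8% were called at these steps. With only 6 genes, the counts in DE against PSC and in LPO against AFE are close to those shares. SERPINH1, the collagen chaperone HSP47, rose by 2.01 in DE (adjusted p = 1.63e-05) and fell by 0.71 in AFE (adjusted p = 0.00659). PPIB, a prolyl isomerase of the endoplasmic reticulum, fell by 0.62 in DE and by 1.72 in LPO against AFE (adjusted p = 0.000245 and 9.89e-07), and FKBP14 rose by 3.22 in LPO against AFE (adjusted p = 9.08e-07).

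Of 13 genes for propeptide removal and crosslinking, 6 rose and 4 fell in DE, 4 rose and 4 fell in AFE, and 10 rose and 2 fell in LPO against AFE, where the median log2 change was 1.39. The shares called over all genes tested were 53.8%, 35.3% and 59.8%. The lysyl oxidases that crosslink fibrils had separate courses. LOX stood between 2.98 and 7.64 CPM before LPO and at 88.7 and 84.2 in LPO, and LOXL2 at 41.3 and 45.8 in PSC, 307 and 306 in DE, 121 and 118 in AFE, and 590 and 597 in LPO. LOXL4 was high in AFE, at 123 and 118 CPM, and fell by 3.90 in LPO against AFE (adjusted p = 2.14e-06).

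Of 8 collagen receptor genes, 5 rose and 1 fell in DE, 3 rose and 2 fell in AFE, and 6 rose and none fell in LPO against AFE, with medians of 1.08, -0.01 and 1.83. MRC2, a receptor that takes up collagen fragments, rose by 4.11 in DE, fell by 1.99 in AFE and rose by 2.26 in LPO (adjusted p = 6.55e-08, 2.41e-06 and 3.03e-07). Of 15 tested basement membrane partners of type IV collagen, 13 rose in DE, 9 rose and 5 fell in AFE, and 7 rose and 5 fell in LPO against AFE. For the receptor and the partner list alike, the shares called over all genes tested were 53.8%, 35.3% and 59.8%. PXDN, the peroxidase that crosslinks type IV chains, rose by 3.55 in DE (adjusted p = 6.55e-08) and stood at 814 and 849 CPM there, against 381 and 411 in AFE and 231 and 244 in LPO.

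The laminin genes in that list peaked at different stages. LAMA1 stood at 326 and 337 CPM in DE, 78.7 and 74.8 in AFE, and 33.4 and 36.7 in LPO, whereas LAMA5 was highest in AFE, at 830 and 873 CPM. SPARC, which binds collagens, rose by 1.55 in LPO against AFE (adjusted p = 3.35e-07). The markers listed for parietal endoderm, an extraembryonic layer that secretes much basement membrane, summed to 486 to 498 CPM in PSC, 1481 to 1521 in DE, 1398 to 1405 in AFE and 2887 to 2930 in LPO, and the list shares SPARC and the laminins LAMA1, LAMB1 and LAMC1 with the basement membrane partners. Most of the LPO sum was SPARC, at 1694 and 1704 CPM, and PLAT, at 682 and 709. The more specific members SOX7 and PTH1R stood at 2.02 and 1.33 and at 124 and 130 CPM in DE. In LPO they were lower, at 0.623 and 0.730 and at 11.4 and 11.9, while THBD was highest there, at 15.8 and 17.5. The smooth muscle markers summed to 80 to 84, 193 to 195, 279 to 292 and 230 to 234 CPM in the 4 stages, with MYOCD at or near 0 in every library. The part of these cells in the collagen levels was not tested.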

How the data were processed

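Per the labels, oligo(dT)-selected RNA was made into strand-marked libraries and sequenced as pairs. The authors deposited expected counts (estimated counts per gene, here whole numbers) and FPKM for 25578 genes in 8 libraries. Tools named in the submitters' processing notes are StringTie 2.1.6, HISAT2 2.2.1, cutadapt 1.9, edgeR and DESeq2, with no role given for each. The genome build, the annotation and the strand setting of the counting are not given in the sources used here, and no member overlaps another gene in the table. Coordinates are those deposited.

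Counts of 19346 genes passing filterByExpr were scaled with TMM (factors 0.901 to 1.27) and fitted to the 4 stages with edgeR 4.0.16 (R 4.3.3) on all 8 libraries, with 4 residual degrees of freedom. Each adjusted p is the Benjamini-Hochberg value of the quasi-likelihood test over all genes tested, and 0.05 is the threshold. Levels are TMM-scaled counts per library (CPM). Folds against a stage at 0 are bounds from a floor of 12 counts (3 read pairs) per library. Ratios against a stage with 1 to 12 counts are of CPM means and carry a 95% counting interval. For the interval, counts were divided by 4 and rounded, with 1 read pair as the least. Bounds and intervals cover counting error only. Tests were tried on simulated data. Alternatives used limma 3.58.1 on log2(FPKM + pseudocount), where folds of low genes are understated, and DESeq2 1.42.0.

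Per-library values are given for members that reach 5 FPKM as a stage mean, and members with called changes over 16-fold are named. Members, classes and gene lists were chosen with earlier results of these data known. Symbols followed the deposited table, and no sequence is shown.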

Additional observations from a re-analysis of the deposited data

How the results depend on the processing

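Depth limits COL19A1, COL4A4, COL24A1 and COL28A1, which lay near the floor of 0.150 to 0.357 CPM, and 2 libraries per stage limit every test. COL25A1 in AFE, at 0.473 and 0.0834 CPM, is limited by depth in the same way. The total numbers of called members moved by less than 1.5 times under every alternative, although the lower calls in AFE against DE went from 9 to as few as 4 without AFE replicate 1. With 1 library left out they were 23 to 28 in DE against PSC, 16 to 23 in AFE against DE, 27 to 30 in LPO against AFE, 31 to 33 in LPO against PSC and 33 to 35 among the stages, where the lone library is assumed to vary like the other stages. With the other alternatives they were 20 to 29, 17 to 22, 27 to 31, 30 to 34 and 30 to 35. The replicate numbers did not pair the samples (correlations of deviations between -0.0136 and 0.00782), and the fit with the replicate number as a block called 27, 20, 29, 32 and 34. Of 141 fitted changes of the tested members (leaving out those with no library above the floor), 98 kept their direction and side of the threshold under every alternative.

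Some changes reversed sign, and the cause was not tested. In AFE against DE, with 1 library left out, COL14A1 ranged from -0.24 (without DE replicate 2) to 0.40 (without DE replicate 1), COL16A1 from -0.18 to 0.078 and COL1A1 from -0.48 to 2.04 (in both, the ends without a DE library), COL4A3 from -0.65 to 0.50 and COL8A2 from -0.59 to 0.39. COL4A3 was -0.086 with the replicate block, -0.019 without DE replicate 1 and -0.65 without AFE replicate 1, and COL8A2 was 0.39 without DE replicate 2 and 0.26 without AFE replicate 1. COL8A1 in DE against PSC ranged from -0.36 to 0.32 and was 0.0066 without DE replicate 2. COL9A1 in LPO against PSC ranged from -0.17 to 0.083 with 1 library left out. On log2 FPKM with pseudocounts of 1 and 0.1, COL9A1 in that comparison was 0.35 and 0.36, and COL4A1 in LPO against AFE 0.11 and 0.12. On summed CPM, which is not per length, the fibrillar share was 14.2% in PSC, 20.9% in AFE and 75.2% in LPO, and the type IV share 22.3%, 23.1% and 5.45%. In LPO against AFE, COL4A6 was 0.10 and 0.13 on log2 FPKM with the 2 pseudocounts, and COL13A1 ranged from -0.014 to 0.31 with 1 library left out. In AFE against DE, COL4A6 ranged from -0.32 to 0.066. In DE against PSC, COL5A3 ranged from -0.97 to 1.32 and was 0.014 with the replicate block. COL4A4, with few read pairs, gave fitted changes from -5.61 to 7.73 in DE against PSC (-1.26 with the block), -7.66 to 6.36 in AFE against DE and -7.36 to 0 in LPO against AFE.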

Other observations

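In all, 3 entries of the table carry a collagen description but no symbol and so fell outside the choice by name. The entry described as type XXVI lies on chromosome 3 at 9160705 to 9164072, directly behind COL26A1 at 9003743 to 9158130 on the same strand, and held 1712 and 1158 counts in PSC, 8061 and 10460 in DE, 10495 and 10289 in AFE, and 5211 and 4566 in LPO. It rose by 2.07 in DE and fell by 1.49 in LPO against AFE on the log2 scale (adjusted p = 1.7e-05 and 6.5e-05, edgeR quasi-likelihood test), whereas the change of COL26A1 in that last step was 0.51 (adjusted p = 0.125). The entry described as type VII, the chain of anchoring fibrils that tie epithelium to stroma, stood at 1.14 and 0.83 FPKM in PSC, 3.88 and 2.48 in DE, 1.35 and 1.18 in AFE, and 7.78 and 7.93 in LPO. It rose in DE, fell in AFE and rose by 2.14 in LPO against AFE. The entry described as type XX stood at or below 0.09 FPKM in every library. COL6A2, COL6A5, COL6A6, COL9A2 and COL10A1 were not analysed here.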
